A study of Mus musculus with 24 samples.

Results

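The comparison described here is the interaction of genotype and drug in mouse liver: the GW3965 response in Villin-Cre mice minus the GW3965 response in floxed mice. It uses the 12 liver libraries, which fall into 4 groups of 3, of the 24 libraries of a study that also sequenced the ileum. Every group, the vehicle controls included, consisted of C57BL/6 mice after a 75% intestinal resection. Both genotypes carried floxed Abca1 alleles (Abca1 fl/fl). Those called Villin-Cre here (Abca1 fl/fl X Villin-Cre) also carried a Cre recombinase driven by the villin promoter, which is active in intestinal epithelium. Each genotype received vehicle or GW3965, an agonist of the liver X receptors (LXR), by mouth at 1 mg/kg/day, given 2 times a week for the last 5 of the 10 weeks that followed surgery. The labels give neither age nor sex. The Y-linked genes Kdm5d, Uty, Ddx3y and Eif2s3y stood at 23.8 to 71.9 CPM (reads of a gene per library total, times 1e6) in every liver library, while Xist, the RNA of the inactive X chromosome, stood at 0.221 to 1.28 CPM.

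LXRs are oxysterol-activated nuclear receptors. In liver they are known for raising cholesterol efflux transporters such as ABCA1, and for raising SREBP-1c and through it fatty acid synthesis. Intestinal ABCA1 moves cholesterol from enterocytes to high-density lipoprotein that drains to the liver in portal blood, and an epithelial deletion of Abca1 is meant to spare the liver's own copy. The liver libraries do not check that intestinal deletion. The interaction addresses whether the liver changed with the drug in the same way in mice with and without Villin-Cre. Every mouse with Cre also had floxed Abca1, so Cre itself and loss of the intestinal gene cannot be told apart.

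Depth was even over the groups, at 26.5 to 32.3 M assigned reads per library (M, 1e6 reads), and the hepatocyte gene Alb took 3.58 to 5.85% of them. Within a group the libraries were close. Their variance was 2.59 to 3.27 times the Poisson variance of the reads in every within-group pair but those of 1 library. Both mates of most fragments seem to have been counted, which by itself raises these ratios. Floxed GW3965 replicate 1 stood apart, at 8.7 and 8.89 times that variance against its own group. Pairs of a vehicle and a drug library stood at 10.3 to 12.9 times in floxed and 6.63 to 7.24 times in Villin-Cre mice. Villin-Cre drug and vehicle libraries thus differed less than replicate 1 did from its own group. Floxed GW3965 replicate 1 held 0.831 CPM of Cyp2b9 against 269 and 259 in the other libraries of its group. Of the urinary protein gene Mup20 it held 1149.9 CPM against 129 and 131. It was also lower in Acss2, which makes acetyl-CoA from acetate, at 119 CPM against 681 and 679. Lpin1 was lower as well, at 69 CPM against 447 and 461, and Elovl3 was higher, at 106 against 21.4 and 20.6. Srebf1 and Scd1 lay with the group: Srebf1 stood at 470 CPM against 468 and 478, and Scd1 at 8317 against 8376 and 8401. Counts without this library are therefore given beside the list counts below that they move by over 1.5 times. There the library is called replicate 1, or the library apart. The libraries left in such a fit are all close, so its p-values rest on that small spread alone. The fit shares 1 spread over the 4 groups. Villin-Cre calls therefore change without replicate 1, while the Villin-Cre responses themselves stay the same. Nothing in the labels says that the 3 libraries of a group came from separate mice, so each p-value reflects variation among libraries that may be technical alone. With the close libraries averaged into 1 unit each, floxed GW3965 kept 2 units and every other group 1, so that the spread rested on the pair that includes replicate 1. limma then called 0 genes for the interaction, with 505 at an unadjusted p under 0.05 and a smallest adjusted p of 0.422. With all libraries apart, limma with voom weights on recovered reads called 3484. All calls below are for the 12 libraries as separate samples.

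The genes called for a GW3965 response differed in part between the livers of the 2 genotypes, and some were called in opposite directions. Of 17520 genes tested, 3479 (19.9%) had an interaction at a Benjamini-Hochberg adjusted p under 0.05 (limma), 1780 above 0 (10.2%) and 1699 below 0 (9.7%). An interaction above 0 means a response higher, or less negative, in Villin-Cre mice. Scaling by median gene ratios in place of library totals, called rescaling below, gave 2177 above and 1378 below 0, so the share above 0 went from 51.2 to 61.2%. The interaction was at least 1 on the log2 scale, a 2-fold difference between the responses, in 649 of these genes (3.7%). In floxed mice 1814 genes rose with the drug (10.4%) and 3451 fell (19.7%), 30.1% in all. In Villin-Cre mice 499 rose (2.85%) and 1582 fell (9.03%), 11.9% in all, and here the rescaled libraries gave 932 higher and 625 lower. In floxed mice rescaling gave 2342 and 2890. Of the genes called in floxed mice 20.3% were also called in Villin-Cre mice, and of those called in Villin-Cre mice 51.4% were also called in floxed mice.

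Each tested gene was placed in 1 class from these 3 calls. A gene was floxed-only or Villin-Cre-only where the interaction and 1 response were called. Floxed-only genes numbered 2152 (12.3%), with 855 rising (4.88%) and 1297 falling (7.4%). Villin-Cre-only genes numbered 460 (2.63%), with 114 rising (0.651%) and 346 falling (1.97%). The response was opposite, with both responses and the interaction called, in 366 genes (2.09%). Of these, 208 rose in floxed and fell in Villin-Cre mice (1.19%), and 158 fell in floxed and rose in Villin-Cre mice (0.902%). A further 170 genes (0.97%) changed the same way but by unequal amounts. Shared genes, called the same way in both genotypes with no called interaction, numbered 533 (3.04%), with 95 rising (0.542%) and 438 falling (2.5%). The 95% interval of the interaction lay within 1 log2 unit of 0 in 509 of the 533 shared genes, and within 0.5 in 403. The remaining genes had an interaction with neither response called (331), 1 response with no called difference (2044 in floxed and 552 in Villin-Cre mice) or no call. Which direction held more genes of a class depended on the scaling in 3 of these classes. After rescaling, 114 opposite genes rose and 277 fell in floxed mice, 213 Villin-Cre-only genes rose and 131 fell, and 210 shared genes rose and 174 fell. Floxed-only genes were then 950 rising and 1432 falling, with falls still in the majority.

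**Figure D1:**
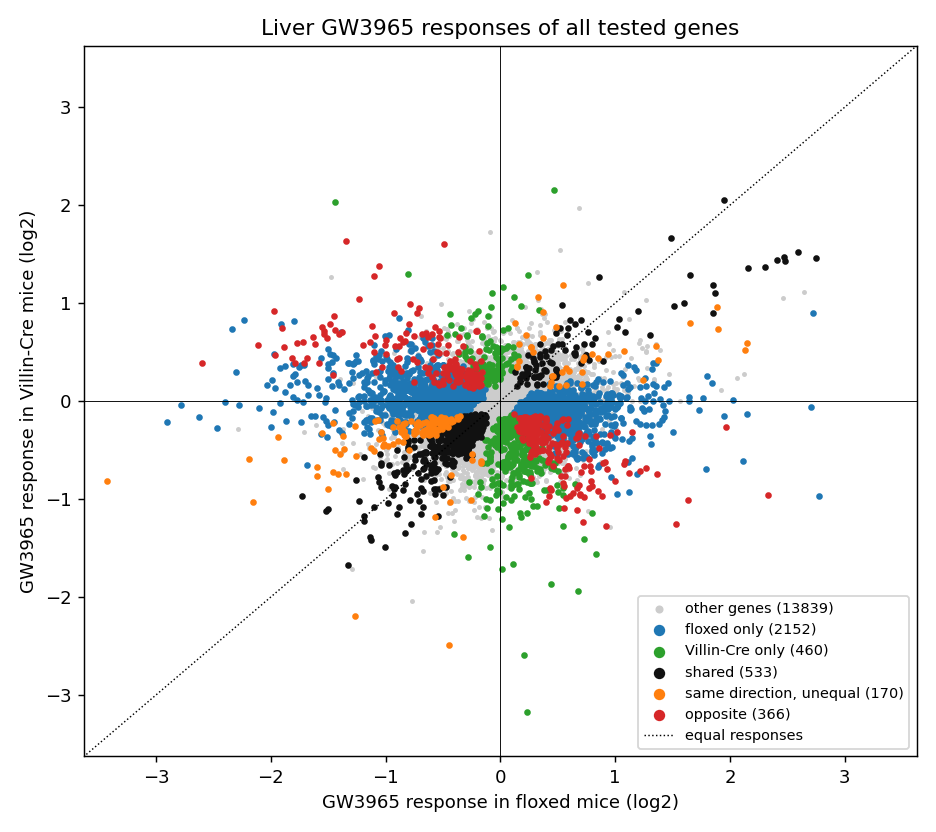
Each point is 1 of 17520 tested liver genes, with its GW3965 response in floxed mice (log2, horizontal) against that in Villin-Cre mice (log2, vertical), coloured by class. Blue points lie along the horizontal axis (floxed-only, 2152 genes), green along the vertical axis (Villin-Cre-only, 460), black near the dotted line of equal responses (shared, 533), orange on its 2 sides (same direction, 170) and red in the upper left and lower right quadrants (opposite, 366).

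Leaving out floxed GW3965 replicate 1 raised the number of interaction calls from 3479 to 5718. It gave 2652 above and 3066 below 0, kept 3430 of the original calls, all with the same sign, lost 49 and added 2288. Opposite genes then numbered 1090, among them 349 of the 366, and shared genes 991, among them 400 of the 533. Of the 2152 floxed-only genes 1611 kept that class, and of the 460 Villin-Cre-only genes 342. Among the 223 genes that could be named here, 79 changed class, most often from floxed-only to opposite as the Villin-Cre response became called. Over all 12 fits that each left out 1 library, 2250 genes kept their interaction call. Leaving out any 1 of the 6 Villin-Cre libraries gave 1084 to 1286 Villin-Cre responses and 204 to 247 opposite genes. The list counts below stand beside interaction shares of 10.2% above and 9.7% below 0 over all tested genes. Those without replicate 1 stand beside 2652 above and 3066 below 0 among 17520 tested genes. In that fit 2733 rose and 4090 fell in floxed mice, and 1161 rose and 3500 fell in Villin-Cre mice.

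**Figure D2:**
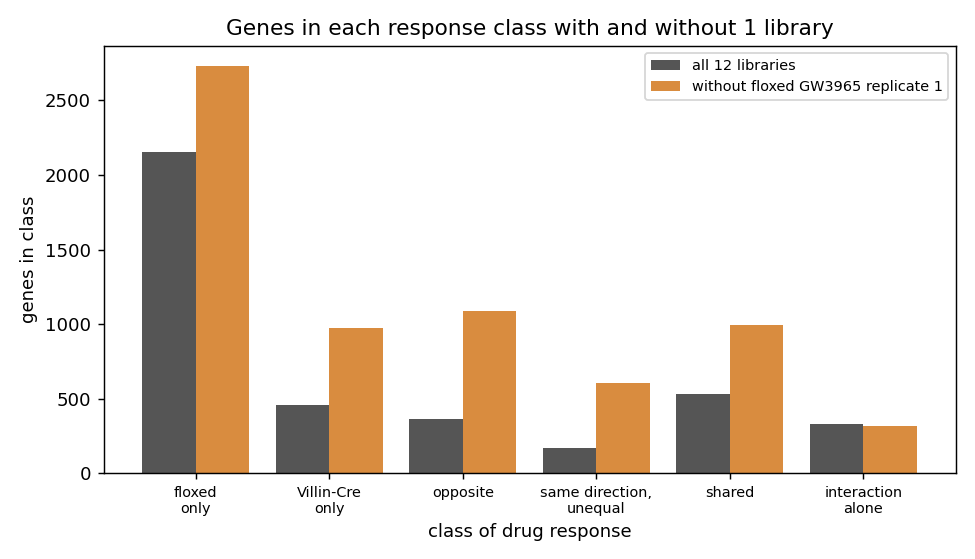
Bars give the number of genes (vertical axis) in each class of drug response (horizontal axis), with all 12 liver libraries (grey) and without floxed GW3965 replicate 1 (orange). Opposite genes went from 366 to 1090, shared genes from 533 to 991 and same-direction genes from 170 to 605, while floxed-only genes went from 2152 to 2728.

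Abca1 itself rose with GW3965 in both genotypes, and by more in Villin-Cre mice. ABCA1 exports cellular cholesterol to apolipoprotein A-I. Its level was 327, 342 and 337 CPM in the floxed vehicle libraries and 479, 467 and 464 with GW3965. In Villin-Cre mice it was 225, 225 and 225 CPM with vehicle and 382, 379 and 377 with GW3965. The 3 drug libraries lay above the 3 vehicle libraries in each genotype, and Villin-Cre mice with the drug stayed below floxed mice with the drug. The response was 0.49 ± 0.04 log2 (SE) in floxed and 0.75 ± 0.04 in Villin-Cre mice. Their difference was 0.27 ± 0.05 (limma adjusted p = 0.00331).

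The LXR targets did not follow Abca1 as a group. Of 25 targets on the list, Abca1 among them and all of them tested, 4 rose and 9 fell in floxed mice, and 6 rose and 2 fell in Villin-Cre mice. The interaction was above 0 in 9 and below 0 in 2, with a median of 0.09 log2 against -0.04 over all tested genes. The 2 below 0 were Mlxipl and Nr1h3, and neither was called after rescaling. With the library apart left out, 10 lay above and 10 below 0, 11 rose and 10 fell in floxed mice, and 9 rose and 9 fell in Villin-Cre mice. Rescaling gave 7 rises and 8 falls in floxed mice, and 6 and 0 in Villin-Cre mice.

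The members that separated the genotypes most were the stearoyl-CoA desaturases, which place the double bond in newly made fatty acids. Scd1 fell in floxed mice from 32553, 32814 and 33081 CPM to 8317, 8376 and 8401. It rose in Villin-Cre mice from 10795, 10913 and 10922 to 20284, 20491 and 20842 CPM. The groups did not overlap, and floxed GW3965 replicate 1 lay with the rest of its group. The interaction was 2.89 ± 0.10 log2 (limma adjusted p = 8.49e-10). Scd2 fell from 496, 503 and 491 CPM to 78.9, 81.6 and 83.9 in floxed mice and rose from 180.2, 179.6 and 178 to 229.8, 242 and 231 in Villin-Cre mice, an interaction of 2.99 ± 0.06 (limma adjusted p = 5.07e-13). Both genes lie on chromosome 19 of GRCm38, Scd1 at chr19:44394455-44407879, minus strand, and Scd2 at chr19:44293674-44306864, plus strand. The paralogs are alike in sequence, so reads could be split between them in counting. Srebf1, which encodes SREBP-1, was opposite with smaller responses of -0.21 and 0.22 log2.

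Lpl, the lipase of triglyceride-rich lipoproteins, fell in both genotypes and more in floxed mice, with responses of -1.37 against -0.35 log2. Abcg1, a cholesterol transporter to high-density lipoprotein, fell in floxed mice from 34.5, 35.9 and 33.3 to 22.6, 22 and 24.5 CPM and stood at 53, 53.8 and 54.6 and at 51.9, 56.7 and 54.2 CPM in Villin-Cre mice with vehicle and drug. Mylip, whose product marks the LDL receptor for degradation, and Lpcat3, which builds polyunsaturated phospholipids, were floxed-only and fell as well, with responses of -0.97 ± 0.12 and -0.53 ± 0.10. Abcg5 and Abcg8, the partners that export sterols into bile, had interactions of -0.25 ± 0.16 and -0.21 ± 0.13 that were not called, with intervals of -0.60 to 0.10 and -0.48 to 0.06. Without replicate 1 they were -0.44 and -0.34, and both were called by the spread among close libraries alone. Nor was the interaction called for Cyp7a1, the rate-limiting enzyme of bile acid synthesis, which stood at 126, 325 and 321 CPM in the floxed GW3965 libraries, with replicate 1 low. Without that library its interaction went from -0.25 to -0.70 log2, and by the spread among close libraries alone the gene was opposite. Ces1f rose in both genotypes, by 0.23 and 0.32 log2, and the interval of the difference was -0.08 to 0.26.

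More genes of fatty acid and triglyceride synthesis fell than rose in floxed mice, and those called in Villin-Cre mice rose. Of 25 genes on this list, 13 fell and 3 rose in floxed mice, while 8 rose, 0 fell and 17 were not called in Villin-Cre mice. The interaction was above 0 in 15 and below 0 in 2, with a median of 1.08 log2. The share above 0 compares with 10.2% of all tested genes. The list includes Scd1, Srebf1 and Mlxipl, which are LXR targets too. Opposite responses were called for 7 of its genes. Fads2, the first desaturase of the polyunsaturated pathway, fell from 1918, 1947 and 1925 to 1152, 999 and 1019.8 CPM in floxed mice. The Villin-Cre libraries rose from 864, 854 and 862 to 1355, 1349.95 and 1330.3 CPM. The interaction was 1.52 ± 0.08 log2 (limma adjusted p = 1.69e-08), and no drug library overlapped its vehicle libraries. Fads1, the next desaturase, and Elovl5, the elongase between them, had interactions of 1.45 ± 0.11 and 1.19 ± 0.06. Fads1 and Fads2 are neighbours on chromosome 19 (GRCm38 chr19:10182888-10196877, plus strand, and chr19:10062765-10101746, minus strand). The vehicle level of each of these genes was lower in Villin-Cre than in floxed mice. When floxed GW3965 replicate 1 was left out, the interaction was above 0 in 20 and below 0 in 4, 15 genes were opposite, and 20 rose and 1 fell in Villin-Cre mice.

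**Figure D3:**
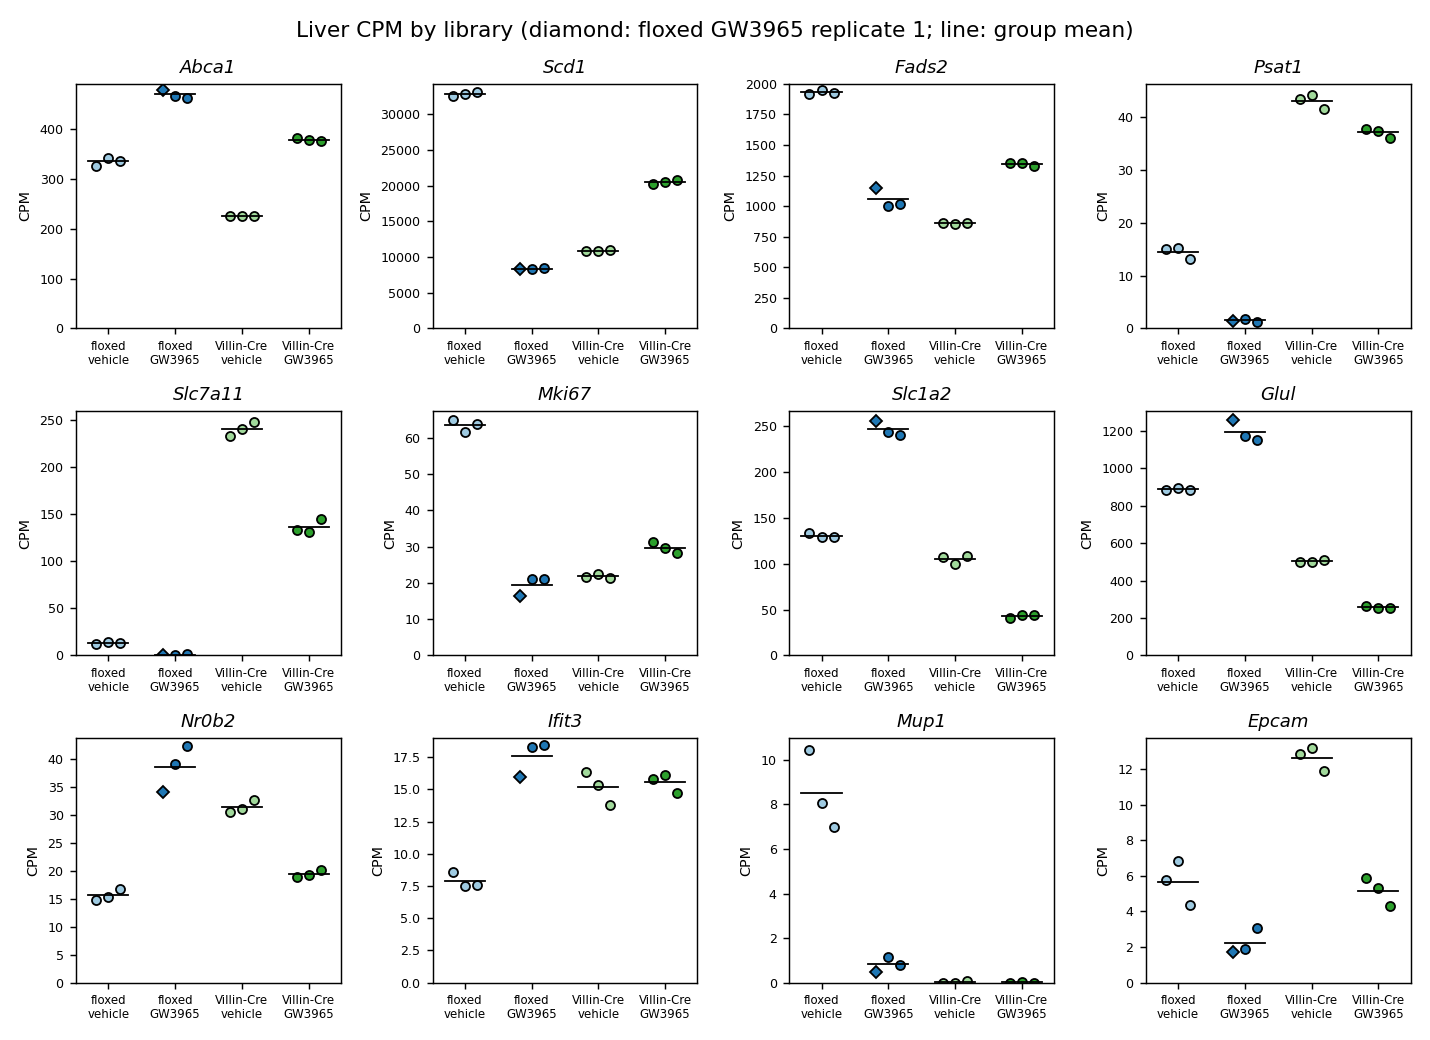
CPM in each of the 12 liver libraries (vertical axes, from 0) for 12 genes, 1 gene a panel, with the 4 groups along the horizontal axis, group means as lines and floxed GW3965 replicate 1 as a diamond. Scd1 and Fads2 fall in floxed and rise in Villin-Cre mice, Slc1a2, Glul and Nr0b2 do the reverse, Psat1 falls in floxed mice, and Abca1 rises and Epcam falls in both.

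Cholesterol synthesis genes shared little of this pattern, and what was called among them depended on 1 library. Of 25 genes of synthesis and uptake, 0 rose and 1 fell in floxed mice with all libraries. The interaction was called for Insig2 alone, which holds SREBP precursors in the endoplasmic reticulum and fell in floxed mice with a response of -0.89 log2. Without floxed GW3965 replicate 1, 23 were called up in floxed and 22 in Villin-Cre mice, with 12 interactions below and 5 above 0. The Villin-Cre responses were the same in both fits, and only their calls changed. Sc5d, a late enzyme of the pathway, gives the pattern by library: it stood at 672, 686 and 695 CPM with vehicle and 335, 903 and 892 with GW3965 in floxed mice, and at 152, 160.5 and 163 and then 262, 265 and 269 CPM in Villin-Cre mice. Replicate 1 lay below its vehicle libraries and the other 2 above them.

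Cell cycle genes mostly fell in floxed mice, and most were not called in Villin-Cre mice. The list holds cyclins, mitotic kinases and replication genes, which are low in resting hepatocytes. Of 28 genes, 20 fell and 1 rose in floxed mice, and 7 rose and 1 fell in Villin-Cre mice. The interaction was above 0 in 19 and below 0 in 1, with a median of 1.41 log2, and 7 were opposite. Leaving out floxed GW3965 replicate 1, 20 lay above and 6 below 0, 6 rose and 20 fell in floxed mice, and 13 rose and 2 fell in Villin-Cre mice.

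Mki67, which encodes the proliferation antigen Ki-67, fell from 64.9, 61.7 and 63.9 CPM to 16.3, 21 and 21.1 in floxed mice. It rose from 21.6, 22.4 and 21.3 to 31.2, 29.5 and 28.2 CPM in Villin-Cre mice, an interaction of 2.13 ± 0.12 log2 (limma adjusted p = 7.69e-08). The drug libraries of the 2 genotypes ended closer together than the vehicle libraries began. Cdc20, an activator of the anaphase-promoting complex, fell from 27, 25.2 and 25.9 to 6.5, 6.28 and 6.18 CPM in floxed mice and rose from 4.2, 4.31 and 3.64 to 6.01, 6.1 and 5.29 in Villin-Cre mice. Ccnd1, the cyclin of entry into the cycle, had nearly equal vehicle levels in the genotypes: 324, 316 and 324 CPM in floxed and 314, 312 and 306 in Villin-Cre mice. With GW3965 it stood at 157, 153 and 145 and 389.9, 379 and 379 CPM, an interaction of 1.38 ± 0.06. Iqgap3 and Ect2, which act in cytokinesis and cell growth and were on no list, were among the genes with the largest opposite responses, with interactions of 2.69 ± 0.23 and 2.64 ± 0.18 log2.

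The promoters of Cdc20 and Mki67 are shown because both genes moved in opposite directions. They were taken from RefSeq (GRCm38.p6) and run from 250 bases before to 50 after the start site, 5′ to 3′ on the gene's strand, Cdc20 at chr4:118437294-118437593 (minus strand) and Mki67 at chr7:135716330-135716629 (minus strand). Capitals mark the cell cycle genes homology region letters TTTGAA on either strand, without regard to overlap with other motifs. These letters were in 10 of 22 tested list members with a promoter in the table (45.5%). They were in 15.1% of the 11767 tested genes with a promoter there and in 17.9% of all 32851 promoters. A match is a description of the letters and not a shown site.
Cdc20: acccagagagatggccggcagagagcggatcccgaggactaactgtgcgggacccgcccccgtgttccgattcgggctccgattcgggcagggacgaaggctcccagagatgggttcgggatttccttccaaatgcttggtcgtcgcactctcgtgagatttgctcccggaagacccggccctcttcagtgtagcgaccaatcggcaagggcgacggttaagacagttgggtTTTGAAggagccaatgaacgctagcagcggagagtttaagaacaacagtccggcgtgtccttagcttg
Mki67: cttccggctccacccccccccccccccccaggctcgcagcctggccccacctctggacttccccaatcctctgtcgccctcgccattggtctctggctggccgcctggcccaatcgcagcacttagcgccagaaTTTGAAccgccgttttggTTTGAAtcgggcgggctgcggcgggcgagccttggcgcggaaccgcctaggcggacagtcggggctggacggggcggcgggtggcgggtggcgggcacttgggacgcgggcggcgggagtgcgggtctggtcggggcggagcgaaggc

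Amino acid stress genes mostly fell in floxed mice, and most were not called in Villin-Cre mice. ATF4 is the transcription factor of the integrated stress response and drives serine synthesis, amino acid uptake and stress hormones. Of 24 targets and related genes, 18 fell and 1 rose in floxed mice, against 3 and 1 in Villin-Cre mice. Without the library apart these were 18 and 4 against 7 and 2, and after rescaling 18 and 2 against 1 and 2. The interaction was above 0 in 15 and below 0 in 2, with a median of 0.68 log2. Psat1, an enzyme of serine synthesis, fell from 15.1, 15.2 and 13.1 CPM to 1.47, 1.74 and 1.29 in floxed mice. In Villin-Cre mice it stood at 43.4, 44.2 and 41.6 CPM with vehicle and 37.8, 37.5 and 36.1 with the drug, a response that was not called. The interaction was 2.69 ± 0.13 log2 (limma adjusted p = 1.41e-08). Slc7a11, the cystine importer, fell in both genotypes, from 11.9, 14.2 and 13.5 to 0.567, 0.674 and 1.16 CPM in floxed mice and from 234, 241 and 248 to 133, 131 and 145 in Villin-Cre mice. Its vehicle level was many times higher in Villin-Cre mice, and its responses of -3.43 ± 0.13 and -0.82 ± 0.13 log2 differed by 2.61 ± 0.18. Aldh18a1, which starts proline synthesis, and Slc3a2, the partner chain of amino acid transporters, were floxed-only and fell, with responses of -2.03 ± 0.09 and -1.23 ± 0.07 log2. Fgf21, a fasting and stress hormone of the liver, fell from 82.5, 93.7 and 82 to 28.6, 12.8 and 14.2 CPM in floxed mice and stood at 35.9, 32.7 and 34.2 and 32.1, 33.2 and 34.8 CPM in Villin-Cre mice.

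The promoter of Slc7a11, at chr3:50443564-50443863 (minus strand) in RefSeq GRCm38.p6 with the same window and orientation, is shown as the list member with the largest fall. Capitals mark the letters TGATGNAA of the C/EBP-ATF response element on either strand, whether or not they overlap another motif. They were in 8 of 22 matched members (36.4%), in 2.89% of matched tested genes and in 3.97% of all promoters.
Slc7a11: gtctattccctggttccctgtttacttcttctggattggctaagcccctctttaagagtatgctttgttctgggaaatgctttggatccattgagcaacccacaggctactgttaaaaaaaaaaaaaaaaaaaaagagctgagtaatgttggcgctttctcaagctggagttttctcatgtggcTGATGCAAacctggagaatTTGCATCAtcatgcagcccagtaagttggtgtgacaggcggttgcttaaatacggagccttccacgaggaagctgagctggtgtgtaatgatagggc

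The other stress lists differed among themselves. Of 23 unfolded protein response genes, 8 had an interaction above and 0 below 0, and 8 fell in floxed mice against 0 in Villin-Cre mice. After rescaling 8 of them rose in Villin-Cre mice, against 1 before. Without the library apart 6 rose and 8 fell in floxed mice (from 1 and 8), 11 rose and 2 fell in Villin-Cre mice, 5 were opposite, and 10 interactions lay above and 2 below 0. Atf6, a sensor of unfolded protein, was floxed-only with a response of -0.40 ± 0.05 log2. Of 8 metallothionein and zinc transport genes, 7 lay above 0 and 0 below. Mt2, which binds zinc and copper, fell from 12, 15.2 and 14.2 to 2.91, 3.37 and 3.41 CPM in floxed mice and from 249, 243 and 234 to 189.6, 184 and 189 in Villin-Cre mice, with an interaction of 1.57 ± 0.11 log2. The zinc importer Slc39a4 was opposite, at -0.73 and 0.40 log2. Among 20 tested NRF2 targets, 9 fell in floxed and 7 in Villin-Cre mice, 6 interactions were above and 2 below 0, and without floxed GW3965 replicate 1 these were 6 and 9, with 18 falling in Villin-Cre mice. Srxn1, which repairs peroxiredoxins, fell from 164, 172 and 172 to 50.6, 68.5 and 68.8 CPM in floxed and from 969, 981 and 956 to 698, 679 and 675 in Villin-Cre mice. Of 16 heat shock genes, 1 had an interaction above and 1 below 0, shares near those of all tested genes, or 6 and 1 without that library.

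Interferon-stimulated genes mostly rose in floxed mice, and most were not called in Villin-Cre mice. These genes answer type I interferon and code for antiviral proteins. Of 30 genes, 25 rose and 1 fell in floxed mice, and 2 rose and 1 fell in Villin-Cre mice, where 6 rose after rescaling. The interaction was below 0 in 23, against 9.7% of all tested genes, and above 0 in 2, with a median of -0.76 log2 against -0.04 over all genes. Without floxed GW3965 replicate 1 it was below 0 in 25, and 4 rose and 2 fell in Villin-Cre mice. Ifit1, which binds foreign RNA ends, rose from 3.87, 4.04 and 3.71 CPM to 11.7, 11.6 and 10.5 in floxed mice. In Villin-Cre mice it stood at 10.5, 11.4 and 11.6 CPM with vehicle and 9.33, 9.37 and 11.2 with GW3965. The Villin-Cre vehicle libraries were thus already at the level that floxed mice reached with the drug. The interaction was -1.59 ± 0.14 log2 (limma adjusted p = 5.18e-06). Xaf1, an interferon-induced promoter of apoptosis, and Irf9, a subunit of the interferon-activated complex, had interactions of -1.22 ± 0.13 and -0.76 ± 0.08. Bst2, which tethers budding virus to the cell, moved against the list and fell in floxed mice from 188, 183 and 186 to 108, 121 and 124 CPM. Of 15 tested interferon-induced GTPases, 13 rose in floxed and 1 in Villin-Cre mice, and 11 had an interaction below 0. The Villin-Cre rises were 4 after rescaling and 5 without replicate 1. Irgm1, which acts in clearance of intracellular microbes, rose from 38.3, 35.3 and 34.4 to 53, 57 and 55.6 CPM in floxed mice. The families of Ifit, Oas, Gbp and Irg genes hold near-identical copies, so the split of reads among their members is uncertain. Summed T and NK cell markers stood at 14 to 16.5 CPM in floxed vehicle and 16.1 to 18.1 in floxed GW3965 libraries, and 25.7 to 28.1 and 17.4 to 20.7 in the Villin-Cre groups. The part of these cells in the interferon result was not tested.

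The promoters of Ifit1, at chr19:34640639-34640938 (plus strand), and Bst2, at chr8:71537423-71537722 (minus strand), are shown because these members went in opposite directions in floxed mice, in the same RefSeq window (GRCm38.p6). Capitals mark the interferon-stimulated response element core GAAANNGAA on either strand, with neighbouring or overlapping matches run together. These letters were in 14 of 21 matched members (66.7%), in 8.91% of matched tested genes and in 8.56% of all promoters. Both of these promoters held them.
Ifit1: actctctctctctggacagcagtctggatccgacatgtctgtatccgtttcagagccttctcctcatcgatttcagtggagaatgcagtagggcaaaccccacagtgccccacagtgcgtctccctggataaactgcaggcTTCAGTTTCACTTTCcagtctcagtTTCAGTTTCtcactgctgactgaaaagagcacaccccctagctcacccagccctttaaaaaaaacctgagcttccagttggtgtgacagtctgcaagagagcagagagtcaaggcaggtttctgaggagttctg
Bst2: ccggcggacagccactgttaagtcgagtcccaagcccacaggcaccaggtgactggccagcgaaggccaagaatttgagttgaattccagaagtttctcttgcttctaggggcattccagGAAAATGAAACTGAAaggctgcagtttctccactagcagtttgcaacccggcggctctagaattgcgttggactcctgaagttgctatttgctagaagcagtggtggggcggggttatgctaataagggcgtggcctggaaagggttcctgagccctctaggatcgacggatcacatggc

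Genes of the pericentral hepatocytes, which surround the central vein and clear ammonia and drugs, leaned the other way from the lipogenic genes. Of 20 tested, 8 rose and 4 fell in floxed mice, and 0 rose and 8 fell in Villin-Cre mice. The interaction was below 0 in 10 and above 0 in 2, and 6 were opposite, against 2.09% of all tested genes. Without the library apart 12 lay below and 4 above 0, 14 fell in Villin-Cre mice and 10 were opposite, beside 1090 opposite among all tested genes. Slc1a2, a glutamate transporter, rose from 133, 129 and 128 CPM to 256, 244 and 240.2 in floxed mice. It fell from 107, 99.1 and 108 to 41.1, 43.7 and 44.2 CPM in Villin-Cre mice, an interaction of -2.19 ± 0.07 log2 (limma adjusted p = 2.81e-10). Glul, the glutamine synthetase that removes ammonia, rose from 887, 894 and 885 to 1258, 1173 and 1154 CPM in floxed mice and fell from 502, 498 and 509.8 to 263, 252 and 255 in Villin-Cre mice. Neither gene's drug libraries overlapped its vehicle libraries in either genotype. The cytochromes Cyp2e1 and Cyp1a2, which oxidise small toxicants, had interactions of -1.34 ± 0.07 and -1.65 ± 0.12. The periportal and urea cycle list was mixed, with 5 of 19 interactions above and 4 below 0, or 8 and 8 without floxed GW3965 replicate 1 and 6 and 2 after rescaling. Its member Pck1, the entry enzyme of gluconeogenesis, was floxed-only and rose by 0.74 ± 0.08 log2.

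Bile acid genes leaned the same way as the pericentral genes. Of 27 genes, 12 had an interaction below and 4 above 0, and 12 rose in floxed mice against 2 in Villin-Cre mice, or 15 and 6 after rescaling. Without the library apart 16 rose in floxed and 9 in Villin-Cre mice, and 10 genes were opposite, against 3 with all libraries. Nr0b2, the repressor SHP that bile acids induce through FXR, rose from 14.8, 15.4 and 16.8 to 34.1, 39.2 and 42.5 CPM in floxed mice. In Villin-Cre mice it fell from 30.7, 31.1 and 32.8 to 18.9, 19.3 and 20.3 CPM. The interaction was -1.95 ± 0.11 log2 (limma adjusted p = 9.80e-08). Slc10a1, which takes bile acids up from portal blood, was opposite too, rising by 0.42 ± 0.05 in floxed mice with a response of -0.62 ± 0.05 in Villin-Cre mice. Abcb11, which exports bile salts into bile, rose in both genotypes, by 0.16 ± 0.04 and 0.58 ± 0.04, and its interaction was above 0. Cyp7b1, of the alternative synthesis pathway, was floxed-only and rose from 17.3, 18.3 and 18.8 to 61.9, 40.2 and 36.1 CPM, with replicate 1 high.

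Of 29 xenobiotic response genes, 7 had an interaction below and 1 above 0, and 4 were opposite. Without floxed GW3965 replicate 1 these counts were 25, 3 and 17. Nr1i3, the drug-sensing receptor CAR, rose from 71.5, 76.3 and 74.8 to 114, 140.2 and 134 CPM in floxed mice and fell from 81.8, 83.5 and 83.7 to 48.4, 51.9 and 50.8 in Villin-Cre mice. Cyp3a25, a drug-metabolising cytochrome, had an interaction of -1.31 ± 0.09 log2. Cyp2c37 stood at 51.1, 49 and 46.9 CPM in floxed vehicle and 70.5, 199 and 207 in floxed GW3965 libraries, and at 25.1, 24.5 and 25.5 and 9.89, 8.97 and 11.9 in Villin-Cre libraries. Its interaction was -2.79 ± 0.40 and, without replicate 1, -3.30. The Cyp2c and Cyp3a families hold near-identical copies, and counts of single members are uncertain.

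Among 32 nuclear receptors, 8 interactions lay below and 2 above 0, against 9.7 and 10.2% of all tested genes. These counts were 5 and 3 after rescaling, and 12 and 3 without replicate 1. Of 20 clock genes, 6 lay below and 2 above 0, and without floxed GW3965 replicate 1 these counts were 12 and 2. Rora, an activator of Bmal1 and a member of both lists, fell from 127, 128 and 126 to 96.2, 94.4 and 89.6 CPM in floxed mice and rose from 110.2, 112 and 115 to 147, 139.8 and 149 in Villin-Cre mice. Hlf, a clock-driven PAR bZIP factor, went the other way, with responses of 0.27 ± 0.08 and -0.53 ± 0.08 log2. The labels do not give the hour of tissue collection. Bcl6, a repressor that growth hormone holds down, stood at 14.5, 14.2 and 15 CPM with vehicle and 22.4, 76.4 and 79.9 with GW3965 in floxed mice, and at 24.9, 23.7 and 27.2 and 16.3, 15.2 and 14.8 in Villin-Cre mice. It is 1 of 25 tested growth hormone and STAT5 targets, of which 4 had an interaction below and 1 above 0 with all libraries, and 9 and 10 without replicate 1.

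**Figure D4:**
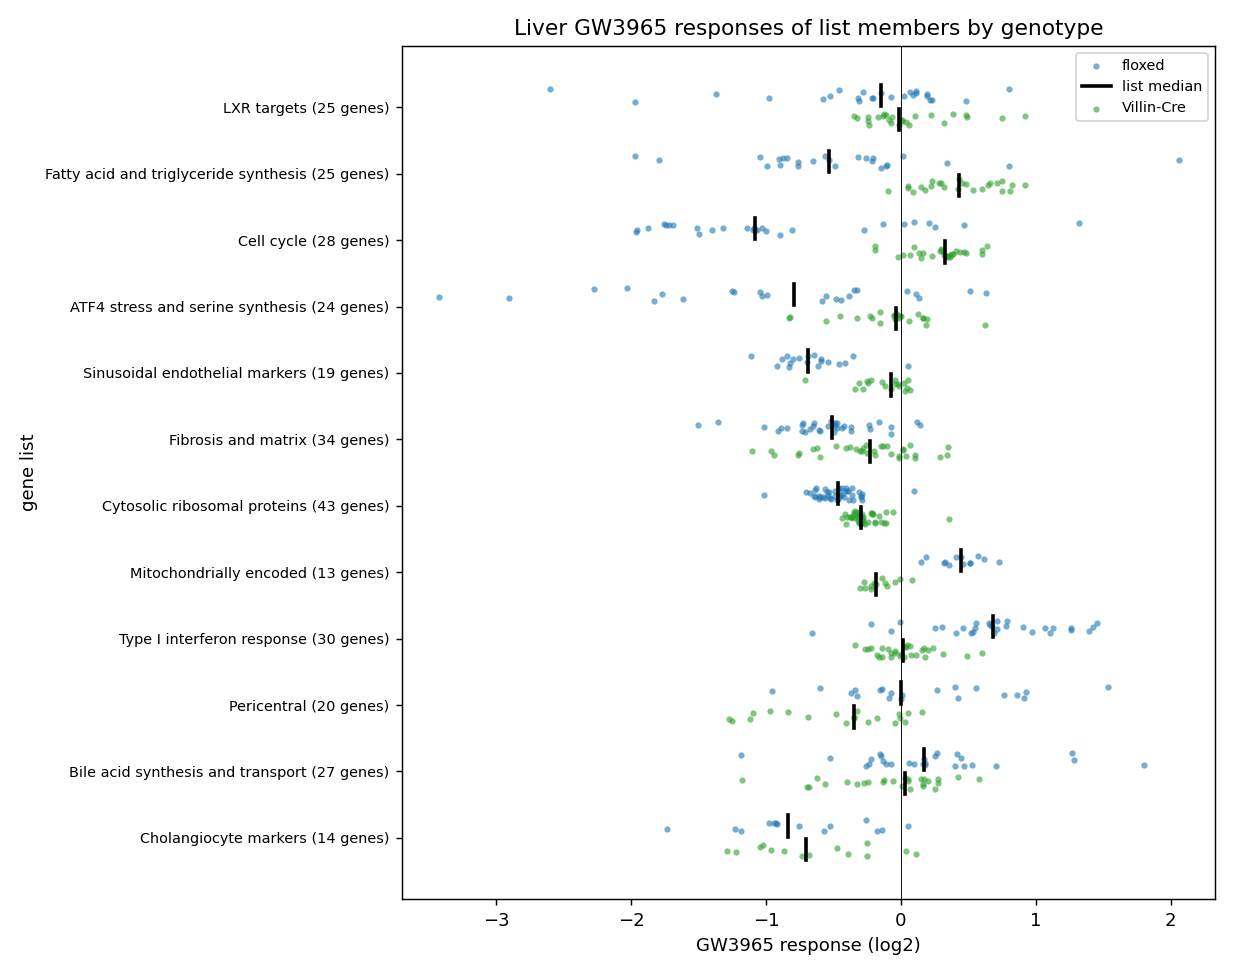
Each point is 1 gene's GW3965 response (log2, horizontal axis) in floxed (blue) or Villin-Cre mice (green) for 12 gene lists (vertical axis), with the list median as a black bar. The medians lie on opposite sides of 0 for fatty acid synthesis (-0.54 and 0.43) and cell cycle (-1.08 and 0.33), apart on 1 side for endothelial markers (-0.69 and -0.07), and close together for cholangiocyte markers (-0.84 and -0.71).

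RNAs encoded in mitochondria rose in floxed mice, with 11 of 13 called up, against 0 in Villin-Cre mice, and 9 interactions were below 0, or 13 without floxed GW3965 replicate 1, when 7 also fell in Villin-Cre mice. The share of all reads from mitochondrial RNAs was 2.05 to 2.22% in floxed vehicle and 2.24 to 3.1% in floxed GW3965 libraries. mt-Nd5, a subunit of complex I, stood at 2968, 3104 and 3180.5 CPM in floxed vehicle and 3329, 4719.7 and 4725 in floxed GW3965 libraries, with replicate 1 lowest. It stood at 3416, 3467 and 3563 and 2850.3, 2851 and 2992 CPM in Villin-Cre mice. The nuclear genes of the same chain did not follow: of 39, 17 fell and 0 rose in floxed mice, and 3 interactions lay above and 1 below 0, or 7 and 0 after rescaling and 8 and 3 without replicate 1.

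Most cytosolic ribosomal protein genes fell in both genotypes. Of 43, 42 fell in floxed and 36 in Villin-Cre mice, and 42 and 21 after rescaling. They made 24 shared genes (13 after rescaling), and 15 had an interaction above 0, or 25 without floxed GW3965 replicate 1 and 23 after rescaling. Rps6, the ribosomal protein that growth signals phosphorylate, fell from 111, 112 and 116 to 72.7, 70.4 and 74.2 CPM in floxed mice and stood at 169, 181 and 182 and 169.7, 160.1 and 163 in Villin-Cre mice. Many ribosomal protein genes have processed pseudogenes that can share their reads.

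Markers of non-parenchymal cells also moved with the groups. In these bulk samples fewer cells of a type and less RNA per cell cannot be told apart. Sinusoidal endothelial markers fell in floxed mice, with 16 of 19 called, against 3 in Villin-Cre mice (6 without replicate 1 and 1 after rescaling), and 13 interactions were above 0 and 0 below. Their summed level was 1324 to 1354 CPM in floxed vehicle, 811 to 992 in floxed GW3965, 1688 to 1706 in Villin-Cre vehicle and 1541 to 1611 in Villin-Cre GW3965 libraries. Kdr, the main receptor of VEGF-A, fell from 118, 117 and 121 CPM to 68.1, 47.7 and 50.1 in floxed mice and stood at 90.3, 91.6 and 95.1 and 96.1, 96 and 93.3 in Villin-Cre mice. Gpr182, a sinusoidal chemokine scavenger, had an interaction of 0.81 ± 0.09 log2 (limma adjusted p = 3.01e-05).

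Most fibrosis and matrix genes fell in floxed mice, and a part of them by less in Villin-Cre mice. Of 34 tested, 27 fell in floxed and 16 in Villin-Cre mice (10 after rescaling), 9 were shared (5 after rescaling), and 17 interactions were above and 2 below 0. Col3a1, a fibrillar collagen, fell from 187, 192 and 182 to 137, 120.1 and 129.5 CPM in floxed mice and stood at 309, 307 and 306 and 338, 332 and 321 in Villin-Cre mice. Sparc, a collagen chaperone, and Col4a1, of basement membranes, had interactions of 0.91 ± 0.07 and 0.75 ± 0.07. The markers of the stellate cells that make this matrix did not divide that way: 8 of 14 fell in floxed and 9 in Villin-Cre mice, with 2 interactions above and 3 below 0, or 5 and 3 without replicate 1. Their summed level was 823 to 841 CPM in floxed vehicle and 676 to 729 in floxed GW3965 libraries, and 1248 to 1257 and 908 to 937 in the Villin-Cre groups. The part of cell composition in the matrix result was not tested.

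Cholangiocyte markers, of the bile duct lining, fell in both genotypes alike in number. Of 14 tested, 9 fell in floxed and 8 in Villin-Cre mice, 6 were shared against 3.04% of all tested genes, and 1 had a called interaction, above 0. Without replicate 1, 3 were above and 1 below 0. After rescaling 4 fell in Villin-Cre mice and 3 were shared. Epcam, an epithelial adhesion protein of ducts, fell from 5.76, 6.83 and 4.36 CPM to 1.7, 1.92 and 3.04 in floxed mice. The fall in Villin-Cre mice was from 12.9, 13.2 and 11.9 to 5.87, 5.32 and 4.32 CPM. The interaction was -0.03 ± 0.27 with an interval of -0.61 to 0.54, and its sign varied over the alternatives. Summed cholangiocyte markers were 219 to 223, 136 to 167, 414 to 419.7 and 260.4 to 276 CPM in floxed vehicle, floxed GW3965, Villin-Cre vehicle and Villin-Cre GW3965 libraries.

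Of the Kupffer cell and macrophage markers some fell in each genotype with all libraries, 7 of 18 in floxed and 8 in Villin-Cre mice, with 2 interactions below 0. Without floxed GW3965 replicate 1, 13 interactions were below 0 and 17 markers fell in Villin-Cre mice. In floxed mice 4 then rose and 6 fell, with a median response of 0.02 log2 against -0.21 with all libraries, and 4 markers were opposite. Their summed level was 745 CPM in that library and up to 1228 in its group, against 1199 to 1217 with vehicle. In Villin-Cre mice it was 2671 to 2701 CPM with vehicle and 1926 to 1979.8 with the drug. Cd163, a haemoglobin scavenger receptor of macrophages, fell from 52.9, 55.1 and 62 to 25, 25.6 and 23 CPM in Villin-Cre mice and from 25.6, 27.6 and 27 to 14.3, 20.7 and 19.4 in floxed mice. Of 19 recruited monocyte and neutrophil markers, 8 fell in floxed and 6 in Villin-Cre mice, against 19.7 and 9.03% of all tested genes. The neutrophil genes S100a8 and Retnlg were at or below 2.32 CPM in every library. Of 11 genes of MHC class II presentation, 7 fell in floxed and 4 in Villin-Cre mice (2 after rescaling), and 4 were shared (2 after rescaling).

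Hepatocyte markers and plasma protein genes were divided. Of 18 hepatocyte markers, 9 had an interaction above and 2 below 0, the latter being Cyp2e1 and Tdo2. In Villin-Cre mice 4 of them rose, 10 after rescaling and 14 without replicate 1, when 11 interactions lay above and 5 below 0. Their summed level was 103835 to 106196, 79223 to 90914, 73394 to 74221 and 80751 to 82829 CPM in the 4 groups in the order given above. Of 34 complement and coagulation genes, 13 rose in Villin-Cre and 7 in floxed mice, and 10 interactions were above and 2 below 0. Without the library apart these counts were 22, 12, 15 and 5. Mbl2, a lectin that starts complement, was Villin-Cre-only and rose from 107, 107 and 109 to 169, 163 and 156 CPM. F5, coagulation factor V, was opposite, with responses of -0.28 ± 0.04 and 0.22 ± 0.04 log2. Acute phase genes were mixed, 9 above and 5 below 0 of 26, or 11 and 8 without replicate 1. Saa3, an inducible amyloid of low level, rose in floxed and fell in Villin-Cre mice with an interaction of -1.64 ± 0.25.

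Fatty acid oxidation genes fell in both genotypes more often than they rose: of 26, 18 fell and 1 rose in floxed mice, and 10 fell and 1 rose in Villin-Cre mice (after rescaling 6 fell there). The interaction was above 0 in 7 and below 0 in 3, and without floxed GW3965 replicate 1 in 13 and 6, with 22 falling in Villin-Cre mice. Cyp4a10, an omega-hydroxylase under PPAR-alpha, fell more in Villin-Cre mice, with responses of -0.63 ± 0.04 against -0.17 ± 0.04 log2. Plin2, which coats lipid droplets, fell more in floxed mice, from 953, 899 and 927 to 541, 457 and 455 CPM, than in Villin-Cre mice, from 1964, 1941 and 1935 to 1623, 1658 and 1592. Among lipoprotein genes, Apob, Mttp and Apoc2 were floxed-only and fell, with responses of -0.41 ± 0.08, -0.41 ± 0.04 and -1.20 ± 0.19 log2. The first is the structural protein of very low density lipoprotein and the second loads it with lipid. Apoc2 stood at 244, 119 and 114 CPM in the floxed GW3965 libraries against 351, 342 and 336 with vehicle, with replicate 1 between the groups. In glucose metabolism, 8 of 23 interactions were above and 3 below 0, or 11 and 10 without replicate 1. Khk, which phosphorylates fructose, was opposite at -0.29 ± 0.05 and 0.29 ± 0.05. Of 16 tested iron genes, 7 lay above and 3 below 0, and Hamp, the iron hormone hepcidin, went from 579.6, 540.4 and 558 to 434, 435 and 446 CPM in floxed and from 558, 554 and 551 to 652, 653 and 611 in Villin-Cre mice.

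Outside the lists, the largest interactions in each class named further genes. Among opposite genes, Npr2, the receptor of C-type natriuretic peptide, rose from 22.4, 24.5 and 24.1 to 95.2, 89.2 and 98.2 CPM in floxed mice and fell from 26.3, 27.4 and 28.2 to 25.3, 20.9 and 21.9 in Villin-Cre mice. Esrrg, an orphan nuclear receptor, rose by 1.37 ± 0.19 and had a response of -0.74 ± 0.19 log2 in Villin-Cre mice. Akr1c18, a progesterone-inactivating reductase, went the other way from low levels, 1.3, 0.919 and 1.36 to 0.302, 0.142 and 0.0661 CPM in floxed and 1.03, 0.969 and 1.07 to 5.09, 4.58 and 3.24 in Villin-Cre mice. Among floxed-only genes that rose, Slc15a2, a peptide importer, had the largest interaction (-3.75 ± 0.46, or -4.30 without replicate 1), followed by the chemokine Ccl27a (-2.77 ± 0.30). In Villin-Cre mice Slc15a2 went from 6.98, 6.1 and 7.89 to 2.88, 3.65 and 3.42 CPM, a response of -0.97 log2 that was not called. Nnmt, which methylates nicotinamide, rose from 5.1, 7.03 and 5.72 to 16.6, 32.1 and 31.4 CPM in floxed mice and stood at 10.0, 9.47 and 10.9 and 10.1, 10.6 and 10.0 in Villin-Cre mice. Cyp2c54 rose by 2.15 ± 0.17 log2 in floxed mice. Floxed-only genes that fell included Gldn (3.07 ± 0.53), the neurotrophin receptor gene Ntrk2 (3.05 ± 0.66) and Aldh1b1, a mitochondrial aldehyde dehydrogenase (2.69 ± 0.60). Their Villin-Cre means went from 5.08 to 8.77, 3 to 5.66 and 22.7 to 39.6 CPM, rises that were not called. Without replicate 1, Slc15a2, Gldn, Ntrk2 and Aldh1b1 were classed as opposite, by the spread among close libraries alone. Aldh1b1 stood at 64.6, 11.5 and 13.1 CPM in the floxed GW3965 libraries, with replicate 1 near the vehicle level of 83.5, 81 and 81.3. Mup1, of the major urinary protein family of near-identical genes, fell from 10.5, 8.08 and 6.98 to 0.491, 1.17 and 0.794 CPM in floxed mice. It was at or near 0 in every Villin-Cre library, so a fall could not be measured there. Ccl27a was likewise low in every Villin-Cre library, with a mean of 0.131 CPM with vehicle.

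Villin-Cre-only genes with the largest interactions were uneven across the floxed GW3965 libraries. Chrna4, a nicotinic receptor subunit, rose from 4.84, 5.72 and 5.07 to 22.1, 23.6 and 22.7 CPM in Villin-Cre mice, while the floxed libraries stood at 112, 109 and 103 with vehicle and 9.14, 81.4 and 80.5 with GW3965. Its interaction was 3.47 ± 0.79 log2 and 2.45 without floxed GW3965 replicate 1, where it was classed as opposite, as were Cyp2f2, C9, Csad, Coro6, Cxcl13 and Twist1. Keg1, a glycine N-acyltransferase family gene, rose from 0.534, 1.38 and 0.999 to 6.64, 5.17 and 5.83 CPM in Villin-Cre mice, below the 31.6, 31.4 and 32.1 CPM of floxed vehicle libraries. Cyp2f2, a periportal cytochrome, and C9, a pore-forming complement protein, rose by 1.30 ± 0.37 and 0.77 ± 0.16 log2 in Villin-Cre mice, and Nat8f5 by 0.67 ± 0.20. Csad, which makes the taurine precursor hypotaurine, fell from 159, 150.4 and 155 to 58.7, 61.5 and 54.3 CPM in Villin-Cre mice. Floxed GW3965 libraries held 275, 739 and 752 CPM of it, with replicate 1 below the vehicle level of 328, 319 and 321. Cxcl13, Twist1 and Coro6 fell from low levels, and Gh, the growth hormone gene, was at or below 1.72 CPM in every library.

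Genes that moved the same way by unequal amounts included Tpm2, a tropomyosin, and Eps8l1, which rose more in floxed mice (interactions of -1.61 ± 0.22 and -1.56 ± 0.25), and the desmosomal gene Pkp1, which fell more there (1.60 ± 0.17). Larger in Villin-Cre mice on the fitted scale were the falls of Mmp7, a matrix protease of injured ducts, and Dcdc2a, of cholangiocyte cilia. Mmp7 went from 19.5, 23 and 23.6 to 3.58, 4.92 and 4.89 CPM in Villin-Cre and from 2.03, 1.84 and 1.84 to 0.453, 0.426 and 0.628 in floxed mice. Its floxed drug levels were near the 0.5 CPM added before taking logs. That addition understates the floxed fall of Mmp7 and so widens the difference. Also larger in Villin-Cre mice were the rises of Nat8f2, Col5a3 and C8a, a chain of the complement pore, which went from 133, 129 and 129.8 to 286, 266 and 267 CPM.

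Shared responses with the largest size in both genotypes were Slit2, Rasd1, Scara3 and Ankrd1 among falls, beside Epcam. Slit2, Rasd1 and Ankrd1 had floxed GW3965 means of 0.637, 0.278 and 0.446 CPM, so their floxed falls depend on the 0.5 CPM added before taking logs. The uncalled Rasd1 interaction of -0.25 log2 was 0.62 with the deposited log2 values and 0.61 with voom weights. That of Slit2 went from -0.34 to 0.01 with voom weights. Slit2, a guidance ligand, fell from 2.32, 1.84 and 2.86 to 0.491, 0.923 and 0.496 CPM in floxed and from 7.44, 8.04 and 7.21 to 1.59, 2.48 and 2.12 in Villin-Cre mice, and the interval of the interaction was -0.93 to 0.25. Scara3 had responses of -1.13 ± 0.11 and -1.42 ± 0.11 log2, with an interval of -0.62 to 0.04. Among rises, Neb, which codes for the giant filament protein nebulin, went from 37, 37.6 and 38.2 to 75.9, 78.6 and 77.8 CPM in floxed and from 12.4, 13.2 and 13.2 to 24.9, 22.9 and 23 in Villin-Cre mice. Its interaction of -0.19 ± 0.08 was not called, and its interval of -0.37 to -0.02 left out 0. Pclo and Sntg2 rose by 1.20 and 0.76 log2 in floxed mice and by 0.92 and 0.71 in Villin-Cre mice. Mup21 rose in both, with 41.1, 14 and 14.8 CPM in the floxed GW3965 libraries and replicate 1 high. Without that library the interaction of Mup21 went from -0.36 to 0.13 log2 and that of Sntg2 from -0.05 to 0.13, and neither was called in either fit. The 5.8S ribosomal RNA entry n-R5-8s1 also met the rule, but ribosomal RNA had been depleted from the libraries and its level depends on that step.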

How the data were processed

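Liver RNA from 4 groups of 3 samples was depleted of ribosomal RNA, primed with random hexamers and sequenced as pairs of 150 bases, per the labels' protocols. STAR 2.5.1a, Subread with featureCounts 1.4.6-p5, bcl2fastq and the build GRCm38 are named in the submitters' processing notes. The authors deposited log2 CPM values (reads of a gene scaled to the library total) for 40757 gene entries, of which 276 repeats were dropped. CPM were recovered from them: the lowest value of -5.62 stands for 0 reads, and 100% of low values came out as whole reads. Of the low read numbers 65.5 to 68.4% were even, so both mates of most fragments seem to have been counted and a read is not a molecule. The sources used here do not say whether strand was used in counting, so overlapping and antisense genes cannot be told apart.

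A gene was tested where 3 or more liver libraries reached 0.5 CPM (17520 genes). limma 3.58.1 in R 4.3.3 was fitted to log2(CPM + 0.5) with 1 mean per group, all 12 libraries and an empirical Bayes trend. The interaction was the Villin-Cre response minus the floxed response, with two-sided p-values adjusted by Benjamini-Hochberg over all tested genes at 0.05. Fold changes are on the log2(CPM + 0.5) scale, which understates changes of low genes. Errors are SE of the fit. The script was tested on simulated data. The alternatives were another scaling, a pseudocount of 2, the deposited log2 values, no filter, a replicate block, voom weights, averaging of close libraries (variance under 4 times the Poisson variance), leaving out each library and a floor of 1 log2 unit. The labels' groups were used for all samples, and the ileum was not analysed here.

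Named genes were Abca1, any LXR target, up to 4 members of each list with the smallest interaction p, and the 5 genes of each class with the largest interaction or, for shared genes, the largest of the smaller response. Class genes also needed a mean of 1 CPM in their highest group, vehicle and drug libraries that did not overlap in the called responses, and the same call in all 12 fits that left out 1 library. Predicted genes, pseudogenes and immune receptor segments were left out. The members, lists and rules were chosen with earlier results of these data known. Gene positions are from GENCODE M21 on GRCm38, and promoters from RefSeq.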

Additional observations from a re-analysis of the deposited data

Results flagged for a closer look

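The drug response differed between the genotypes by a test of the difference itself (limma, adjusted over all tested genes) in the following results. The interaction was above 0 in 1780 genes and below 0 in 1699, and 366 genes had opposite responses. Of the genes that fell in floxed and rose in Villin-Cre mice, the largest interactions on the log2 scale under the naming rule were 2.99 for Scd2, 2.98 for Akr1c18, 2.89 for Scd1, 2.69 for Iqgap3 and 2.64 for Ect2. Of those that rose in floxed and fell in Villin-Cre mice they were -2.79 for Cyp2c37, -2.23 for Npr2, -2.19 for Slc1a2, -2.11 for Esrrg and -1.95 for Nr0b2. The lowest-level gene of these, Akr1c18, stayed at or below 5.09 CPM, while Scd1 reached 33081 CPM.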

How the results depend on the processing

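Averaging aside, 9 named genes changed the sign of their interaction under an alternative, 0 of them with a call in either fit. Without floxed GW3965 replicate 1 the 4 were Pltp (0.12 to -0.02 log2), Smpdl3a (0.08 to -0.12), Mup21 and Sntg2, and 22 uncalled interactions became called. A pseudocount of 2 moved 17 called interactions by over 1.5 times, mostly of low genes. Both counts of interaction calls, the numbers of floxed and Villin-Cre responses and the 5 class totals stayed within 1.5 times the reported ones with a pseudocount of 2, the deposited log2 values, no filter, the block, voom weights and rescaling, but rescaling moved their split by direction: Villin-Cre rises went from 499 to 932 and falls from 1582 to 625, and the opposite, Villin-Cre-only and shared classes changed their majority direction. With close libraries averaged, limma called 0 genes above and 0 below 0 for the interaction, 5 for the floxed and 0 for the Villin-Cre response, and 0 opposite, 0 floxed-only, 0 Villin-Cre-only, 0 same-direction and 0 shared genes. At an unadjusted p under 0.05 it called 505, 1295 and 209 for the 3 tests, with residual spread from 1 pair of units. Counting genes at 1 log2 unit or more gave 327 and 322 interaction calls, 439 and 111 responses, and 6 opposite, 264 floxed-only, 39 Villin-Cre-only, 1 same-direction and 24 shared genes. Leaving out 1 library gave 1421 to 2652 genes above and 1252 to 3066 below 0, 4195 to 6823 floxed and 1084 to 4661 Villin-Cre responses, and 204 to 1090 opposite, 1689 to 2728 floxed-only, 233 to 977 Villin-Cre-only, 85 to 605 same-direction and 318 to 991 shared genes. Each highest value came without floxed GW3965 replicate 1. Leaving out any of the 6 Villin-Cre libraries lowered Villin-Cre responses to between 1084 and 1286. The cause was not tested. Same-numbered libraries did not deviate together (correlations of -0.03 to 0.03, against -0.04 to 0.05 for different numbers). Deviations among close libraries are small, so this check cannot decide whether the numbers mark a pairing. The replicate block gave 1743 above, 1615 below, 5218 and 1960 responses and 341 opposite genes. Of 174 named genes with a called interaction, 5 lost the call with the block, 4 with rescaling, 5 with voom, 9 with no filter, 5 with the deposited values and all with averaging. Depth limits low genes, whose log2 values depend on the pseudocount.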

Other observations

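Immediate early genes and lipid droplet genes held some members with a called interaction. Of 23 immediate early genes, 7 had an interaction above and 3 below 0 (limma), against 10.2 and 9.7% of all tested genes, and 1 was opposite. Without floxed GW3965 replicate 1 these counts were 10, 6 and 6. 12 fell in floxed and 8 in Villin-Cre mice (5 after rescaling and 13 without that library). Atf3, a stress-induced transcription factor, fell from 17.6, 14.7 and 17.4 to 7.48, 3.76 and 3.14 CPM in floxed mice and stood at 48.7, 45.4 and 46.6 and 52.3, 53.1 and 55.7 in Villin-Cre mice. Myc, a driver of cell growth, fell from 23.4, 22.7 and 23.2 to 12.3, 12 and 12.1 CPM in floxed and from 83.2, 85.2 and 79.8 to 73.2, 74 and 67.9 in Villin-Cre mice. Egr1, a growth factor-induced transcription factor, was opposite, and fell from 141, 147 and 146 to 70.1, 74.7 and 66.9 CPM in Villin-Cre mice. Its floxed libraries stood at 55.8, 57.5 and 51.6 with vehicle and 54.4, 80.7 and 86.5 with GW3965, with replicate 1 inside the vehicle range. Of 18 lipid droplet genes, 7 lay above and 3 below 0, or 9 and 6 without floxed GW3965 replicate 1. Hsd17b13, a droplet-bound dehydrogenase, fell from 294, 286 and 287 to 204, 132 and 128 CPM in floxed mice and stood at 245, 233 and 253 and 321, 306 and 319.8 in Villin-Cre mice.

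Apoa4, an apolipoprotein made in gut and in fatty liver, was the main part of the intestinal marker sum, which was 1746 to 1797 CPM in floxed vehicle and 234 to 1319 in floxed GW3965 libraries. Apoa4 fell from 1692, 1649 and 1645 to 1239.6, 180.4 and 177 CPM in floxed mice, with replicate 1 near its vehicle libraries, and stood at 3784, 3772 and 3669.7 and 3173, 3096 and 2928 in Villin-Cre mice. Its interaction of 1.99 ± 0.71 log2 was not called, and its 95% interval was 0.47 to 3.52. Without replicate 1 it was 2.92, and was called by the spread among close libraries alone. Of the 14 intestinal markers 7 were under 0.5 CPM in every library. Pancreatic acinar markers summed to 10.2 to 11.6, 6.95 to 8.3, 11.2 to 17.4 and 10.3 to 10.6 CPM in floxed vehicle, floxed GW3965, Villin-Cre vehicle and Villin-Cre GW3965 libraries.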
